A study of Homo sapiens with 4 samples.

Results

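The nuclear genes of oxidative phosphorylation were examined in the m6A peak lists of OE-19 cells, an established line of adenocarcinoma of the esophagogastric junction. They were chosen by symbol among the protein-coding genes of GENCODE version 44 on chromosomes 1 to 22 and X. Symbols beginning with NDUFA, NDUFB, NDUFC, NDUFS, NDUFV, UQCR, ATP5, or COX and a digit were taken, together with SDHA, SDHB, SDHC and SDHD. This gave 107 genes of 19970, of which 46 belonged to complex I, 4 to complex II, 9 to complex III, 28 to complex IV and 20 to complex V. By role they were 22 core subunits, 55 accessory subunits, 7 tissue isoforms of subunits, 18 assembly factors, the ATP synthase inhibitor ATP5IF1, and 4 readthrough or copy genes. The labels gave no treatment or genotype, and the series held 2 m6A immunoprecipitation samples and 2 input samples. In meRIP-seq, fragments that carry N6-methyladenosine are pulled down with an antibody, and places where they pile up are called as peaks. The peak list of each of the 2 immunoprecipitation replicates was used, and the input samples were not analysed here. There was therefore 1 group, no contrast between conditions and no test, and intervals are 95% Wilson intervals that cover counting error only.

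Oxidative phosphorylation moves electrons from NADH and succinate to oxygen along complexes I to IV of the inner mitochondrial membrane, and the proton gradient so made drives ATP synthesis by complex V. A small set of subunits is encoded by mitochondrial DNA, and the others are encoded in the nucleus, translated in the cytosol and imported. Core subunits carry out electron transfer, proton pumping or ATP synthesis, accessory subunits stabilise the complexes, and assembly factors help to build them without being part of the finished enzyme. On mRNA, m6A is written mainly at a DRACH motif, of which GGAC is a common form, and is known to concentrate in long exons and around stop codons, away from exon junctions.

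Replicate 1 held 24607 peaks and replicate 2 held 19318, of which 18472 and 11995 had their summit in an exon of a protein-coding gene. The lists carry neither read numbers nor strand, so depth is unknown and overlapping genes cannot be told apart. RNA level was not analysed here, so a transcript without a peak may be unmethylated or too scarce, and these cannot be told apart. Of 6 epithelial markers, EPCAM, KRT8, KRT18, KRT19 and ERBB2 had no exonic summit and CDH1 had one in both lists, which is a record of peaks and not of expression.

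Few oxidative phosphorylation genes carried a peak. In replicate 1, 25 of the 107 genes (23.4%, interval 16.4% to 32.2%) had at least 1 summit in an exon, beside 42.5% of all protein-coding genes. In replicate 2 the number was 10 (9.35%, interval 5.16% to 16.4%), beside 34.2%. All 10 genes of replicate 2 were also counted in replicate 1, so 9.35% had a summit in both lists, beside 33.5% of all protein-coding genes. Such overlap was usual for all protein-coding genes, where 6681 of the 6833 genes of replicate 2 were in both lists. A summit in replicate 1 only was found for 15 genes (14%, interval 8.68% to 21.8%), beside 9.03% of all genes, and 0 genes had one in replicate 2 only (interval up to 3.47%). The remaining 82 genes (76.6%) had no exonic summit in either list. Most of all protein-coding genes had none either, as 42.5% had one in replicate 1 and few had one in replicate 2 only.

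These genes are short, so each was next set beside other protein-coding genes of like exonic length, in 20 length bins. At the rate of those genes, 36.0 members would carry a summit in replicate 1, 28.2 in replicate 2 and 27.5 in both. The observed 10 were 0.363 times the last of these numbers. With the length of the spliced transcript in place of the exonic length of the gene, 10 members stood beside 19.6, a ratio of 0.511. The ratio stayed below 1 in all 5 classes of exonic length but the shortest. In the class from 1000 to 2000 bases, 0 of 22 members had a summit in both lists, beside 14.1% of all genes. In the class of 8000 bases or more, 1 of 12 did, beside 48.9%. That gene was NDUFB9, an accessory subunit of complex I, and its shared summit also lay in an exon of MTSS1. Exonic length joins the exons of all annotated transcripts, so a gene of this class can have a short main transcript. NDUFB9 has 16591 exonic bases and a main transcript of 691 nt, and UQCRB 12600 and 695. NDUFA9, in contrast, has 10391 and 8356.

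**Figure D1:**
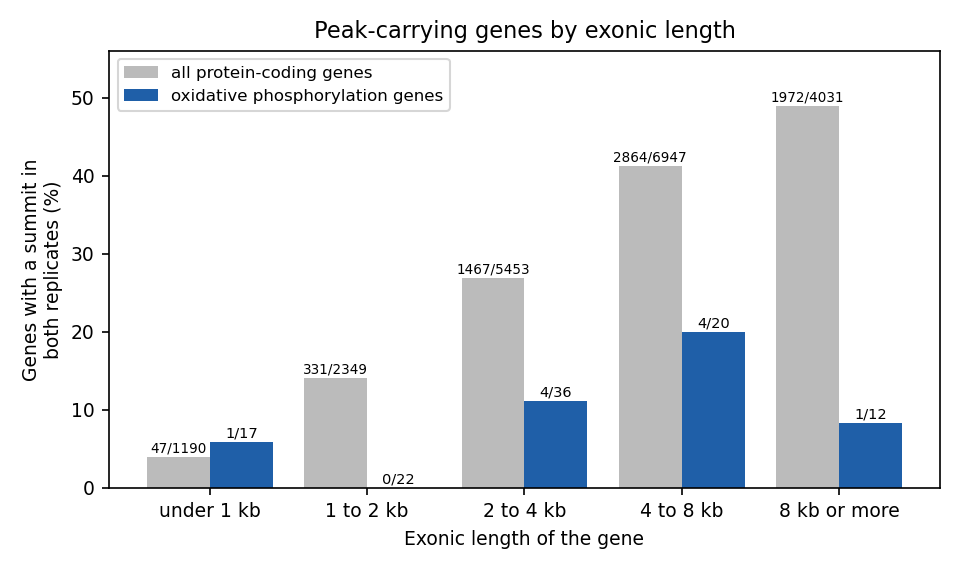
Share of genes with an exonic m6A summit in both replicates (y axis, percent) by exonic length of the gene (x axis), for all protein-coding genes (grey) and the 107 oxidative phosphorylation genes (blue); the numbers above the bars are genes with a summit and genes in the class. The grey bars climb from 3.95% to 48.9%, while the blue bars lie between 0 and 20%.

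The genes were then counted by role and by complex. Of the 22 core subunits, 1 had a summit in both lists, where 7.41 would at the rate of genes of like length. For the 55 accessory subunits the numbers were 3 and 12.5. Of the 18 assembly factors, 4 had a summit in both lists (22.2%, interval 9.0% to 45.2%) beside 6.12 by length, so their interval held the share of genes of like length, which was 34.0%. By spliced transcript length the numbers were 5.02 for the core subunits, 8.08 for the accessory subunits and 4.98 for the assembly factors. The difference between roles was not tested. By complex, the observed and length-based numbers were 4 and 12.8 for complex I, 0 and 1.13 for complex II, 0 and 2.32 for complex III, 4 and 6.29 for complex IV, and 2 and 5.04 for complex V. The 4 genes of complex II, the succinate dehydrogenase that also serves the citric acid cycle, had no exonic summit in either list. With 4 genes, a count of 0 leaves an interval up to 49.0%, which held the share of genes of like exonic length, 28.3%. The interval of complex III (up to 29.9%) held its length-based share of 25.8%. The same was true of complex IV (5.70% to 31.5%, beside 22.5%) and complex V (2.79% to 30.1%, beside 25.2%). Only the interval of complex I (3.43% to 20.3%) lay below its share by exonic length, 27.7%. By spliced transcript length, the number for complex I was 8.53 of 46 genes, a share that lay within this interval.

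**Figure D2:**
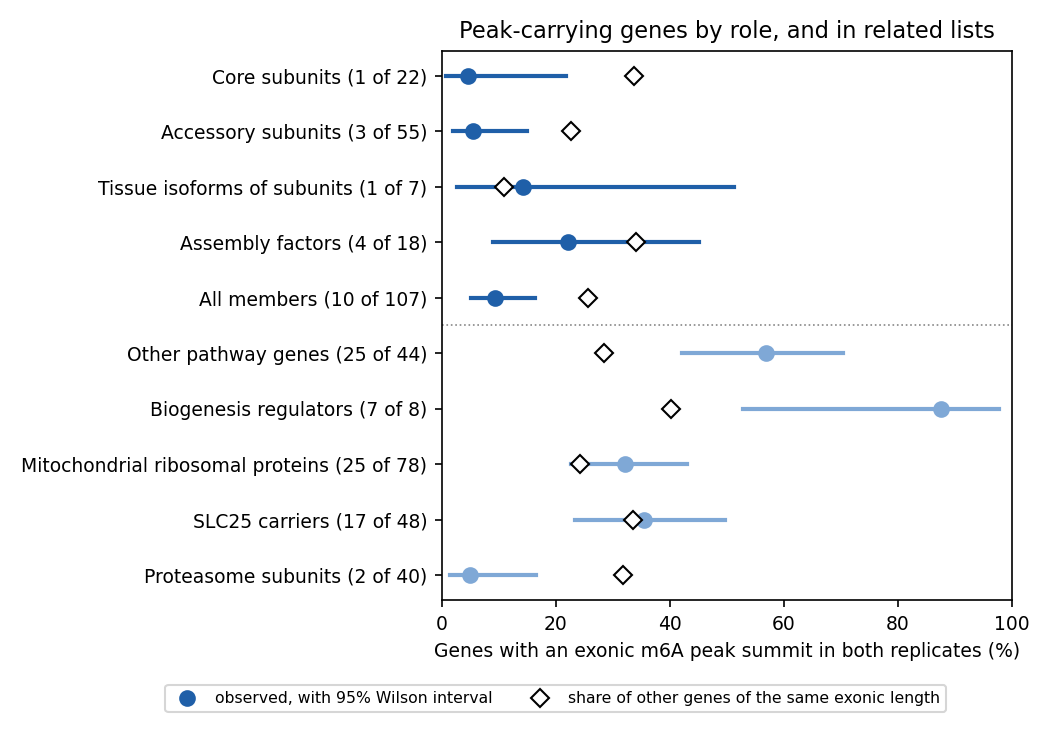
Share of genes with an exonic m6A summit in both replicates (x axis, percent; filled points with 95% Wilson intervals) for each role, for all 107 genes and for 5 related lists, with the share of other genes of the same exonic length as open diamonds. The core and accessory subunits lie below their diamonds at 4.55% and 5.45%, as do the proteasome subunits at 5.0%, whereas the other pathway genes lie above theirs at 56.8%.

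The members with a summit in both lists were COX6B2, COX10, ATP5MF-PTCD1, NDUFS3, NDUFV3, NDUFAF1, COX19, ATP5PF, NDUFB9 and COX14. For 4 of them, the shared summits fell in an exon of another gene as well. The shared NDUFS3 summit lay 7428 bp outside its main transcript, in an exon of the neighbouring phosphatase gene PTPMT1 that 1 of 15 annotated NDUFS3 transcripts also uses. Its fold enrichment was 6.47 in replicate 1 and 7.80 in replicate 2. The shared ATP5PF summit (3.75 and 3.43) lay in an exon of GABPA on the other strand, 214 bp outside the main transcript, while a peak of 3.82 inside the ATP5PF coding sequence was in replicate 1 only. The shared NDUFB9 summit (3.51 and 3.19) lay in an exon of MTSS1 on the other strand. ATP5MF-PTCD1 is a readthrough gene that joins an ATP synthase subunit to the pentatricopeptide repeat gene PTCD1, and its 6 peaks in replicate 1 and 2 in replicate 2 all lay in exons of PTCD1. Counting only summits in exons of a single gene left 6 members, COX6B2, COX10, NDUFV3, NDUFAF1, COX19 and COX14, beside 23.8 by length counted in the same way, a ratio of 0.252. Among the 84 subunit genes (core, accessory and tissue isoforms), 2 were left, COX6B2 and NDUFV3, beside 17.8. No core subunit was left, beside 6.59.

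Sequence at the shared summits that lay in exons of a single gene and on the main transcript is printed to show the letters under the peaks. The COX10 peaks outside its main transcript, which were stronger, are not printed. All are on hg38, written 5′ to 3′ on the strand of the gene, with GGAC in capitals. Windows in coding sequence run 50 bases to each side of the replicate 1 summit, and windows in 3′ UTRs are 30 bases around the GGAC nearest to the summit, or around the summit where there was no GGAC within 50 nt.
COX6B2, chr19:55350429-55350458, minus strand, 3′ UTR: catgctgcgacaaGGACagggaatggtcgg
COX10, chr17:14206939-14207039, plus strand, last coding exon: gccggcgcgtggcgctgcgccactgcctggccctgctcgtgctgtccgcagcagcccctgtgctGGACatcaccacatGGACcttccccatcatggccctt
NDUFV3, chr21:42903966-42904066, plus strand, coding exon 3: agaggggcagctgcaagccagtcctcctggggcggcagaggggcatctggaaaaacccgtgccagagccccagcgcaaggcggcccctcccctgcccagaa
NDUFAF1, chr15:41396603-41396703, minus strand, coding exon 2: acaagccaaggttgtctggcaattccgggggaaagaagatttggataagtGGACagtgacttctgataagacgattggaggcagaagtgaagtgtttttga
COX14, chr12:50120107-50120207, plus strand, last coding exon: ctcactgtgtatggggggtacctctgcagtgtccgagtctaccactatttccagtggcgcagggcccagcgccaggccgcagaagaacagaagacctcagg
COX19, chr7:966689-966718, minus strand, 3′ UTR: ccgtgtgtaagggGGACtgttgtgaggggc
COX19, chr7:967528-967557, minus strand, 3′ UTR: ggcccgggtcgggcctgcctctccgctcgc
The COX10 window held 2 GGAC and the NDUFAF1 window 1, while the NDUFV3 and COX14 windows held none. Of the COX19 windows, the second, at the stronger of its shared peaks, held none.

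COX6B2, the testis isoform of a complex IV subunit, had the strongest peak of the group in replicate 1, while in replicate 2 a COX10 peak of 13.7 stood above it. Its fold enrichment, the peak caller's ratio over local background, was 19.1 in replicate 1 and 11.5 in replicate 2. These values lay at percentile 99.1 and 96.4 of all exonic peaks of their lists. The summits were 14 bp apart, in the last exon, which is 1093 nt long, and they lay 487 and 501 nt past the stop codon of the Ensembl canonical transcript. On the transcript with the longest CDS, which has further exons after its stop codon, the distances were 1016 and 1030 nt. The nearest other coding gene was 1871 bp from the replicate 1 summit. The summit position is part of 4 of 10 annotated COX6B2 transcripts.

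NDUFV3 encodes an accessory subunit of the NADH-binding module of complex I. Its shared peak reached a fold enrichment of 8.56 (replicate 1) and 4.38 (replicate 2). The summits were 72 bp apart, 416 and 488 nt before the stop codon. Both summits lay in exon 3 of 4, a coding exon of 1095 nt that 1 of 2 coding transcripts contains. The peak therefore falls on the longer of the annotated coding forms. A further peak with a fold enrichment of 2.10, 43 nt before the stop codon, was in the list of replicate 1 only.

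The other 4 genes are assembly factors. COX10, which makes heme O for complex IV, had 4 peaks in each list. The shared peak of its last coding exon was enriched 4.48 times in replicate 1 and 1.81 times in replicate 2, with summits 222 and 151 nt before the stop codon. Its stronger peaks lay beyond the end of the main transcript, at 6.51 and 13.7 (8191 and 8223 bp past its end) and at 11.4 in replicate 1 beside 7.29 and 11.5 in replicate 2 (from 22276 to 22699 bp past its end). Those positions are exons of alternative COX10 transcripts, and no other annotated gene has an exon there. The order of these COX10 peaks by strength differed between the lists.

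NDUFAF1, a complex I assembly factor, had 1 peak in each list, at 5.83 and 6.13, with summits 16 bp apart in coding exon 2, which is 654 nt long. This exon position is part of all 11 annotated transcripts. COX14, a small regulator of COX1 synthesis, had 1 peak in each list at 2.86 and 2.11, with summits 58 and 59 nt before the stop codon. COX19, a copper-handling protein of complex IV assembly, had 2 shared peaks in its 3′ UTR, which lies in a last exon of 4605 nt. Their fold enrichment in the 2 lists was 5.42 and 3.14 at 2701 and 2697 nt past the stop codon, and of 5.90 and 3.67 at 1837 and 1825 nt. A peak of 3.06 at 973 nt was in replicate 1 only, and a peak of 2.80 assigned to COX19 through a long transcript also lay in an exon of ADAP1, with the summit of the overlapping replicate 2 peak 239 bp away. The replicates placed the shared summits of these genes within 12 bp in COX14 and COX19 and within 72 bp in COX10, NDUFV3 and NDUFAF1, leaving aside the peaks outside the main transcripts of COX10 and COX19.

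**Figure D3:**
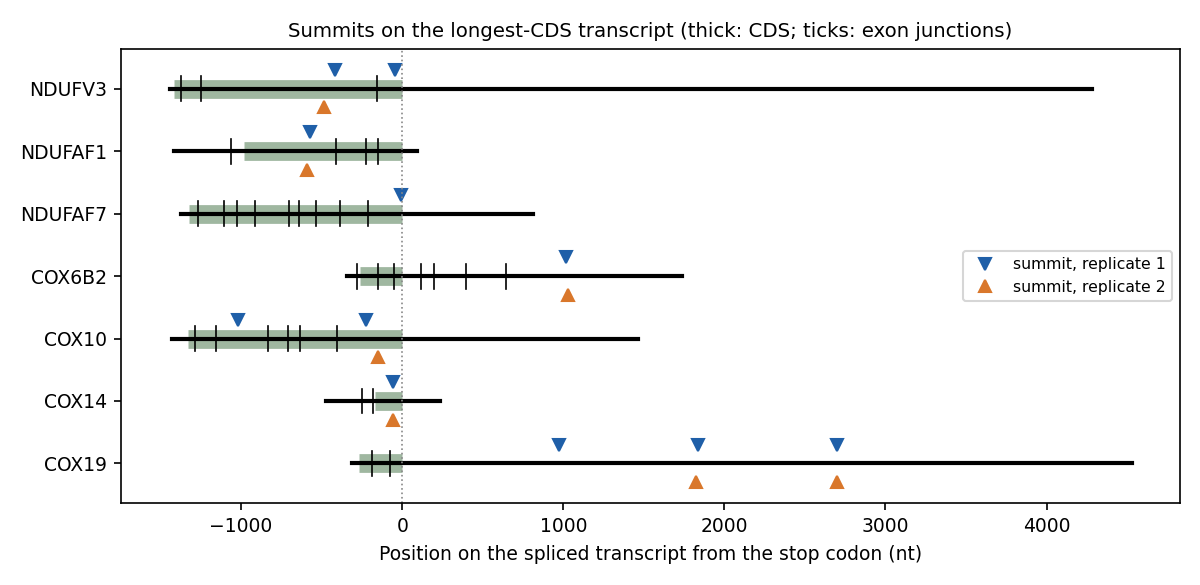
Summits of replicate 1 (blue, above) and replicate 2 (orange, below) on the spliced longest-CDS transcript of 6 genes with shared summits in exons of a single gene and of NDUFAF7, by distance from the stop codon in nt (x axis); thick green marks the CDS, ticks mark exon junctions. The summits of COX19 and COX6B2 lie in the 3′ UTR, those of NDUFV3, NDUFAF1, COX10 and COX14 in the CDS or next to the stop codon, and NDUFAF7 has a replicate 1 summit only.

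The 15 genes with a summit in replicate 1 only had mostly weak peaks. Their 16 peaks had a median fold enrichment of 3.26 (range 1.53 to 9.18), beside 3.96 for the 2389 peaks of all protein-coding genes counted in replicate 1 only. None of the 15 had a replicate 2 peak that touched an exon. The exception in strength was NDUFAF7, a methyltransferase that modifies a core subunit during complex I assembly, at 9.18 with a summit 10 nt before the stop codon. COX15, which makes heme A, had a peak of 3.43 at 2 nt past the first base of the stop codon. COX11, a copper chaperone for complex IV, had a peak of 3.65 in its first exon.

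Core subunits were found only among these weaker peaks, apart from the NDUFS3 summit in PTPMT1. In complex I, NDUFV1, which binds NADH, had a peak of 2.28 and the iron-sulfur subunit NDUFS8 one of 2.06. In complex III, the Rieske protein UQCRFS1 had peaks of 2.29 and 2.07 and UQCRC2 one of 3.50 in its first exon. In complex V, ATP5F1D of the central stalk had a peak of 2.16. The remaining genes of replicate 1 only were ATP5IF1 (4.16), UQCR11 (3.55), NDUFA2 (3.48, outside its main transcript), NDUFA7 (3.39), NDUFB11 (3.13), UQCR10 (1.71) and COX6A1 (1.53). For NDUFA7, NDUFB11, UQCR10 and COX6A1 the summit also lay in an exon of another gene. No exonic summit was listed in either replicate for NDUFS1, the largest subunit of complex I, for SDHA and SDHB, for UQCRC1, for COX4I1 and COX5B, or for ATP5F1A and ATP5F1B, which form the catalytic head of ATP synthase.

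**Figure D4:**
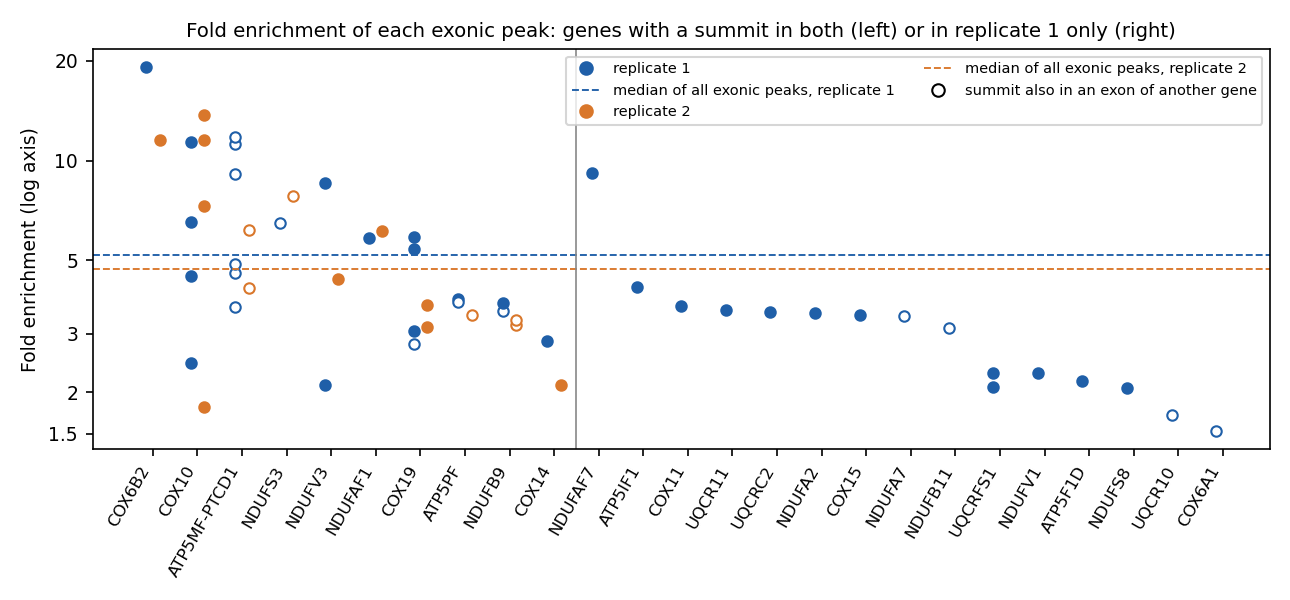
Fold enrichment (y axis, log axis) of every exonic peak of the 25 genes with a summit, replicate 1 in blue and replicate 2 in orange; open points also lie in an exon of another gene, and dashed lines are the medians of all exonic peaks, 5.18 and 4.70. Of the genes on the right, with a summit in replicate 1 only, NDUFAF7 alone lies above the median line.

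Across all their peaks, the members were lower in fold enrichment than other genes in replicate 1. The 40 peaks had a median of 3.64 (range 1.53 to 19.1) beside 5.18 over 19377 peaks of all protein-coding genes, and 30% reached 5 beside 53.5%. In replicate 2 the 16 peaks had a median of 4.26 (range 1.81 to 13.7) beside 4.70 over 12549 peaks, and 43.8% reached 5 beside 45.7%. The medians of the members in the 2 lists differed with an SD of 0.439. Fold enrichment depends on local background and on depth, so it is not an m6A level.

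Within transcripts, the intervals for the members' summits held the shares of all genes in every region. In replicate 1, 32 of the 40 summits lay on the transcript with the longest CDS. Of these, 28.1% (9, interval 15.6% to 45.4%) lay within 200 nt of the stop codon, beside 24.6% for all protein-coding genes. Another 53.1% lay in the CDS beside 48.9%, 15.6% in the 3′ UTR beside 17.6%, and 3.12% in the 5′ UTR beside 8.99%. In replicate 2, 9 summits lay on that transcript, 2 of them in the stop codon window (22.2%, interval 6.32% to 54.7%, beside 27.2%). These 2 were the COX10 and COX14 summits. Distance from junctions was also recorded, and 20 of the 32 summits in replicate 1 and all 9 in replicate 2 were more than 100 nt from an exon junction. Of the 22 summits in replicate 1 that lay in exons of a single gene, 17 were. For all protein-coding genes the shares were 81.2% and 91.5%.

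The GGAC motif was searched within 50 nt of each summit on the strand of the gene. It was found at 19 of 40 member summits in replicate 1 (47.5%, interval 32.9% to 62.5%) beside 49.7% for all protein-coding genes. In replicate 2 it was found at 11 of 16 (68.8%, interval 44.4% to 85.8%) beside 51.6%. Both intervals hold the value of all genes. Consecutive windows of that size along whole transcripts held GGAC in 26.8% of 1686 windows of member transcripts and 30.5% of windows of all protein-coding transcripts. The same letters on the other strand, GTCC, which cannot overlap with GGAC, were found at 40.0% and 25% of member summits in the 2 replicates, beside 31.5% and 29.5% for all genes and 25.6% of all transcript windows.

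The transcripts of the members differed from those of other genes mainly in length. The median member transcript was 995.0 nt long with 4 exons, a CDS of 435.0 nt, a 3′ UTR of 234.0 nt and a longest exon of 505.0 nt. Over all protein-coding genes with a coding transcript the medians were 2830 nt, 8 exons, 1305 nt, 883.0 nt and 1368 nt. GGAC was found 3.50 times per kb in members and 3.82 times per kb in all. GGAC more than 100 nt from any exon junction, however, had a median number of 1 per member transcript and 5 per transcript of all genes, and was missing from 29.0% of member transcripts (31) and 9.37% of all. Assembly factors were longer than subunits, with a median longest exon of 1618 nt beside 374.5 nt and a median of 4.50 such GGAC beside 1.

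**Figure D5:**
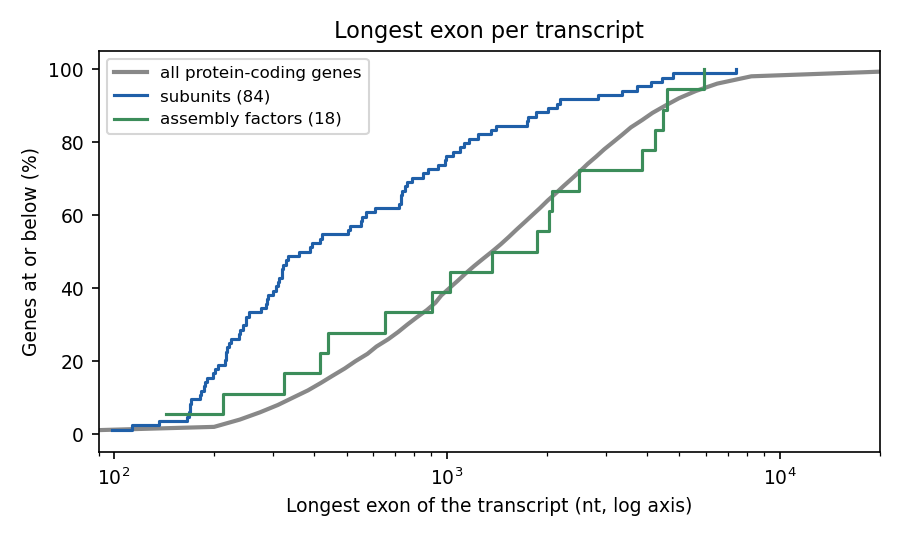
Cumulative share of genes (y axis, percent) by the length of the longest exon of the longest-CDS transcript (x axis, nt, log axis) for all protein-coding genes (grey), 84 subunit genes (blue) and 18 assembly factors (green). The subunits reach 50% at a shorter exon than all genes, with medians of 374.5 and 1368 nt, while the assembly factors follow the grey curve, with a median of 1618 nt.

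Members were then compared with other genes by the number of GGAC away from junctions. At the rate of other genes with as many, 21.0 members would have a summit in both lists, and the observed 10 were 0.477 times that. With no such GGAC, 3 of 31 members (9.68%) had a summit in both lists, beside 8.16% of all genes. Those 3, ATP5PF, NDUFB9 and NDUFS3, were the nuclear subunits whose shared summits also lay in another gene. With 1 to 3, 2 of 52 members (3.85%) did, beside 16.8%, and with 4 to 9, 3 of 20 (15%), beside 37.1%. With 10 or more, 2 of 4 members did (50%), NDUFV3 and COX19, beside 55.0% of all genes. Of the 24 members with 4 or more, 5 had a summit in both lists and 14 had no exonic summit in either list. The share of all genes with 4 or more and no summit was not counted. Among the 14 were NDUFA9 with 18 in a transcript of 8356 nt, NDUFA5 with 6 and the supercomplex factor COX7A2L. The 6 members with shared summits of their own had a median longest exon of 1480 nt and a median of 7 such GGAC, beside 2020 nt and 9 for all protein-coding genes with a summit in both lists.

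Other genes of the pathway, which the symbol rule leaves out, carried peaks more often. Of 44 further genes, mostly assembly factors, 25 had a summit in both lists (56.8%, interval 42.2% to 70.3%), beside 12.6 by length, and 4 in replicate 1 only. For 19 of the 25 the summits in both lists were in exons of that gene alone. TMEM186, a complex I assembly factor, reached 19.6 in replicate 1 and 18.8 in replicate 2 at its strongest peaks, and the complex IV assembly factor COA7 had 11.8 and 12.1. The copper chaperone SCO1 had 9.77 and 8.87, whereas SURF1, also of complex IV assembly, had no exonic summit. Cytochrome c (CYCS) and the complex III subunit cytochrome c1 (CYC1), which carry electrons, had none in either list, and CYCS had 17 GGAC away from junctions. Of 8 regulators of mitochondrial biogenesis, 7 had summits in both lists (87.5%, interval 52.9% to 97.8%), beside 3.22 by length. Their median number of GGAC away from junctions was 8.50. Among the 7 were PPARGC1A (10.7 and 10.2) and NRF1 (10.4 and 7.24), and TFAM, which packages mitochondrial DNA, had no exonic summit.

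Among related lists, the 40 proteasome subunit genes, which also encode parts of a large complex, gave 2 genes beside 12.7 by length, a ratio of 0.158. The 78 mitochondrial ribosomal protein genes gave 25 beside 19.0 (1.32), and the 48 SLC25 carrier genes gave 17 beside 16.1 (1.05). The ratio of 0.363 for the oxidative phosphorylation genes was thus below that of the other mitochondrial lists and above that of the proteasome. By spliced transcript length the ratio was 0.511 for the oxidative phosphorylation genes and 0.212 for the proteasome. It was 1.64 for the ribosomal proteins and 1.08 for the carriers. These differences were not tested, and RNA level, which can differ between the lists, was not analysed here. No peak was listed on the mitochondrial chromosome in either replicate, so the 13 mitochondrially encoded subunits had none.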

How the data were processed

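Peak lists of 2 m6A immunoprecipitation samples of OE-19 cells were used, with groups taken from the labels. The labels describe UV-fixed, lysed cells, whereas the study's methods describe DNase-treated, fragmented total RNA. The aligner is TopHat2 in the methods and HISAT2 in the submitters' processing notes, which also name fastp, MACS2 and hg38. Use of the input in peak calling is not given in the sources used here. The authors deposited, per peak, a summit fold enrichment, which is a ratio to local background, −log10 of the p-value and q-value, the summit offset, and a score, unused here, that is 10 times −log10 q cut to a whole number. Depth is unknown, and the number of peaks limits the precision.

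A gene was counted when a summit lay in any of its exons (GENCODE version 44). An overlap of 1 bp or more made peaks shared. Regions used the transcript with the longest complete CDS. The restriction to complete CDS was added after the data were seen and changed the transcript of 3 members. The length-based number was the sum, over genes of a list, of the share of other genes in the same of 20 exonic length bins. For the members, their roles and complexes, the other genes were all non-members. For each further list they were all genes outside that list. No test was run. The members, lists and roles were chosen with earlier results of these data known. Named were all members with a summit, 10 subunits chosen by name with or without a summit, 8 of them core subunits by role, and the pathway and comparison lists. Further genes of those lists, and NDUFA9, NDUFA5 and COX7A2L, were picked as examples after their values were seen. Alternatives were stricter q or fold enrichment, equal list sizes, peak midpoints, other assignment, membership, length, window and transcript rules, and each replicate left out. The functions were tested on simulated data. Python 3.11.15, numpy 2.4.6, pandas 2.3.3, scipy 1.17.1, pysam 0.24.0 and matplotlib 3.10.9 were used.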

Additional observations from a re-analysis of the deposited data

Results flagged for a closer look

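Peaks whose summit lay inside an oxidative phosphorylation gene but in no exon of it were outside all comparisons above, and were listed because the data hold a signal there. There were 7 such peaks in replicate 1, in 5 genes, with a median fold enrichment of 6.07 (range 2.93 to 8.49), and 8 in replicate 2, in 7 genes, with a median of 5.17 (range 3.22 to 7.42). The same counts and medians over all protein-coding genes are not given here. These values therefore describe the members only and show no difference from other genes. In NDUFA10 the peak was in both lists, at 4.57 and 7.42, in UQCRC2 at 7.53 and 3.22, and in COX19 at 7.36 and 3.37. The COX19 summits also lay within the span of the neighbouring gene ADAP1. A replicate 2 summit in ATP5MF-PTCD1, at 5.60, was 13 bp from an exonic summit of replicate 1. NDUFA10 had no exonic summit, and UQCRC2 had one in replicate 1 only. Whether these peaks come from the pre-mRNA of these genes or from another transcript was not tested.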

How the results depend on the processing

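Of 114 alternative values, 90 stayed within 1.5 times the count, within the interval of the share, or within the SD of the replicate medians, and 24 moved. The 25 genes of replicate 1 became 8 at a fold enrichment of 5 or more and 16 without assembly factors, regulator and copy genes. The 10 genes of replicate 2 became 5 under each of these settings and 6 with summits in exons of a single gene. The 10 genes in both became 5, 5 and 6 in the same way, and also 6 with copy genes left out in addition, a setting added after the data were seen. Leaving out a replicate gave 10 to 25 genes and a ratio to the length-based number of 0.355 to 0.694, where without replicate 2 the values were 25 and 0.694. Under the other alternatives the ratio lay between 0.242 and 0.511, so it was below 1 under all that were run. The stop codon share became 50% with 400 nt in replicate 1, and 0 in replicate 2 at q of 1e-05 or less, at a fold enrichment of 5 or more, and for subunits alone. The median fold enrichment in replicate 1 became 4.48 at q of 1e-05 or less, 4.32 with lists of equal size and 5.87 for shared peaks. In replicate 2 it became 6.16 at q of 1e-05 or less, and 5.26 both for exons of a single gene and for the strongest peak per gene. The GGAC share became 75% in replicate 1 at a fold enrichment of 5 or more, and 27.5% and 37.5% within 25 nt in replicates 1 and 2. A wider or narrower window changes such shares for any gene. Apart from the ratio, values of all genes under these settings are not given here. The moved counts, shares and medians therefore describe the members only. No cause was tested beyond the smaller sets that stricter settings leave.

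No paired analysis was possible because the input samples, which share the replicate numbers, had no values analysed here. The peak lists lack read numbers and strand, and RNA level was not analysed here, which limits every count of genes without a peak.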
